A study of Mus musculus with 5 samples.

Results

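The genes described here are the replication-dependent histone genes of mouse ear skin, taken as every row of the count table whose Entrez identifier has a symbol that starts with H2ac, H2bc, H3c or H4c and a number, or is one of H1f1 to H1f5. There were 62 such genes among 27179 identifiers: 5 of the linker histone H1, 17 of H2A, 16 of H2B, 12 of H3 and 12 of H4. In all, 52 lay on chromosome 13 and 10 on chromosome 3. The annotation held 64 symbols that met the rule, and the other two, the pseudogenes H2ac14 and H2ac5-ps, were not analysed here.

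RNA sequencing was done on total RNA from the ear skin of B6 mice. There were 2 knockout (KO) libraries, titled Cd1d -/-, and 3 control libraries, titled Cd1d +/- but tagged WT for genotype, so they are called controls. CD1d is the cell-surface molecule that shows lipids to natural killer T cells, and the series asked how its loss alters the skin transcriptome. The labels give no age, sex, treatment or design of the Cd1d allele, nor do they state that each library came from its own mouse, so the p-values measure only the spread between these libraries.

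Replication-dependent histones package newly made DNA, and their genes are switched on as cells enter S phase. Their messages are unusual in having no introns and, as a rule, no poly(A) tail: the RNA ends just past a short stem-loop that is bound by the protein SLBP and cut with the help of the U7 small nuclear ribonucleoprotein. Longer, polyadenylated forms of some of these genes are known from differentiated cells. In skin, dividing cells sit mainly in the basal epidermis and in the growing hair follicle.

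The stem-loop is the mark that sets these messages apart. It was looked for in the longest annotated transcript of each gene as a perfect stem of 6 bases on each side of a loop of 4, on the pattern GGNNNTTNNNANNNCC, and was found in 41 of 62 members (66.1%) against 171 of 55450 annotated genes (0.308%). The forms found are shown because they divide the families, with the stem in capitals and the loop in lower case, written as DNA.
H2ac24, H2ac23, H2ac19, H2ac11, H1f2, H1f4, H3c14 and 16 others: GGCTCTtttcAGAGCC
H4c8 and 5 other H4 genes: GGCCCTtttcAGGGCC
H3c3, H3c6, H3c7, H2bc3 and H2bc12: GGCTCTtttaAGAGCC
H4c9 and H4c14: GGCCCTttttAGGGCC
H4c2 and H4c11: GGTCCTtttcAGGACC
H4c1: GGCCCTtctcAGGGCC
H3c8: GGCTCTtcttAGAGCC
H2ac20: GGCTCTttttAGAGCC
The first form was carried by 3 H1, 9 H2A, 6 H2B and 5 H3 genes and by 0 H4 genes. Every H4 stem-loop differed from it within the stem. The annotated transcript ended within 60 bases of the stem-loop in 21 of the 41 genes and ran on further in the other 20. H4c8 continued for 46 bases and H2ac24 for 3, while H4c9 continued for 330, H1f2 for 840 and H3c14 for 1167. The longest transcripts of H2bc4 and H2bc21 held no match. Some other models without a match were short, at 312 bases for H4c12, 381 for H2bc18 and 393 for H2ac22. A model that stops before the stem-loop cannot hold it, so a missing match does not mean that the gene lacks one.

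Promoters were available for 57 members, in 58 windows from 250 bases before to 50 bases after the annotated start (RefSeq, GRCm38.p6). Motifs were counted on both strands. CCAAT, the letters bound by NF-Y, was present in 50 of the 58 windows (86.2%) against 37.4% of 32851 windows of all genes. It stood in 5 of 5 H1, 17 of 17 H2A, 15 of 15 H2B and 10 of 10 H3 windows, but in 3 of 11 H4 windows. The TATA letters TATAAA were in 58.6% of member windows against 13.6% of all windows, and TATATA, which may overlap the first, in 25.9% against 5.67%. ATTTGCAT, the octamer known for its role in H2B transcription, was in 22.4% of member windows against 1.74% of all, with 7 of 15 H2B and 6 of 17 H2A windows. AAACACA, an element described for H1 promoters, was in 4 of 5 H1 windows and 13.8% of all member windows, against 7.18% of all genes' windows. GGTCCG, the core of an element described for H4 promoters, was in 10 of 11 H4 windows and 20.7% of all member windows, against 8.25%. Windows of H2A and H2B genes that start within 500 bases of each other, described further on, cover much of the same DNA. The H2A and H2B counts are therefore not all from separate promoters. A match describes these letters only and is not evidence of binding.

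A promoter of each kind is printed with these motifs in capitals, 5′ to 3′ on the gene's own strand, from 250 bases before to 30 bases after the start. H1f2 is the most abundant member, H4c8 the member that passed the test, and H2ac6 the weak partner of a shared H2A and H2B promoter region described further on. In the H2ac6 window the capitals ATTGG and ATGCAAAT are CCAAT and the octamer on the other strand.
H1f2, chr13:23738557-23738836, plus strand: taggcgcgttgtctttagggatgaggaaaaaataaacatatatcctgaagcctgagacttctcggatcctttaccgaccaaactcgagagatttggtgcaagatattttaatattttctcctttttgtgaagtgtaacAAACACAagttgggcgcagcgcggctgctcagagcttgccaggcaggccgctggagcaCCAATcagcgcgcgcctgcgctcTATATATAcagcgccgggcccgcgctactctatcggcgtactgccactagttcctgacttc
H4c8, chr13:23530794-23531073, plus strand: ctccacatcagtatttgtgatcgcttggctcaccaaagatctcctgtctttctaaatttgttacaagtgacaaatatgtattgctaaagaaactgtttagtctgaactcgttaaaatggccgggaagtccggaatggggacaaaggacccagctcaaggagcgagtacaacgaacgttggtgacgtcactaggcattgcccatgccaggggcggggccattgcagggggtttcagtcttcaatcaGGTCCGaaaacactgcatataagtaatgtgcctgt
H2ac6, chr13:23683930-23684209, minus strand: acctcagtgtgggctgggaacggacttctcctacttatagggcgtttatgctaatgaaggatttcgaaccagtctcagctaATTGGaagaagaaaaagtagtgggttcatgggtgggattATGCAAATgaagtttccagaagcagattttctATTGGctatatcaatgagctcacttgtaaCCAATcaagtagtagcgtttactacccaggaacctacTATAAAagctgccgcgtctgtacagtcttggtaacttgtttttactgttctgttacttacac
The H1f2 window holds the H1 element first, then the NF-Y letters, then an overlapping TATA run. In the H4c8 window the H4 element runs across the annotated start and the NF-Y letters are missing.

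Library totals were 45270805 to 54596686 counts in KO and 32353957 to 79160005 in controls, so that each read added 0.0119 to 0.0303 CPM (counts scaled by library size and TMM factor). Cd1d1, the targeted gene, had 61 and 48 counts in KO libraries against 557, 757 and 182 in controls (log2 fold change -2.67, SE 0.29, edgeR adjusted p = 0.0152). Its call was lost without KO replicate 1 (adjusted p = 0.336) or control replicate 1 (0.0935). KO replicate 1 stood apart in hair follicle markers: 22 summed to 875 CPM there, against 94.1 CPM in KO replicate 2 and 74.9 to 111 CPM in controls, with Krt26 and Krt72 at 0 in control replicate 2. The 14 muscle markers summed to 7782 and 8679 CPM in KO against 5958 to 6218 CPM in controls, the 12 epidermal keratinocyte markers to 68873 and 65835 CPM against 48875 to 58914 CPM, and no marker of either list was at 0 in any library. The 15 leukocyte markers summed to 204 and 180 CPM in KO and 159 to 188 CPM in controls, with Ms4a1 at 0 in KO replicate 1. The 13 mitochondrially encoded messages summed to 18857 and 16786 CPM in KO and 16221 to 23480 CPM in controls. The part of these lists in the histone results was not tested. In whole tissue, fewer cells of a type and less RNA per cell cannot be told apart.

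A handful of genes supplied most histone reads in this skin. All 62 members together gave 246 and 274 CPM in KO libraries, against 188, 184 and 220 CPM in controls. Of these genes, 3 averaged at least 10 CPM over the 5 libraries, 10 averaged between 1 and 10 CPM, 46 were detected below 1 CPM, and 3 (H2ac1, H2ac10 and H2bc1) had 0 counts in every library. A count of 0 allows up to 3 counts in a library, for counting error alone.

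**Figure D1:**
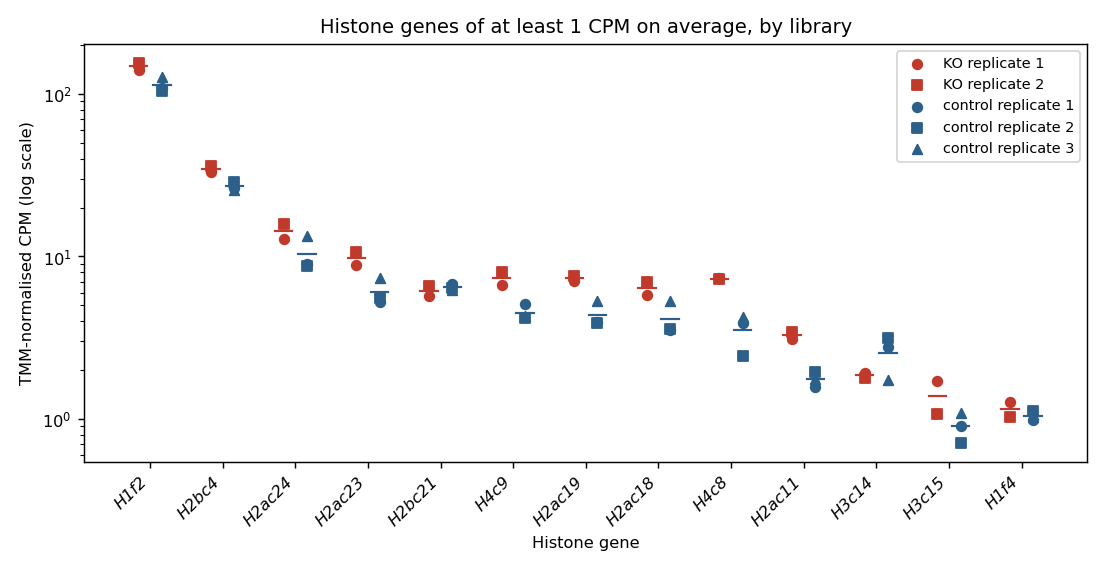
TMM-normalised CPM on a log axis for the 13 histone genes that averaged at least 1 CPM, with a point per library, KO left of control, and a short line at each group mean. H1f2 stands far above the others, and both KO points lie above every control point for 8 of the 13 genes.

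H1f2, a linker histone that binds where DNA enters and leaves the nucleosome, gave 98.3% of all H1 counts on the CPM scale. It lies on chromosome 13 at 23738807 to 23739531 (GRCm38, Entrez 50708). Its level was 140 and 155 CPM in KO against 109, 104 and 127 CPM in controls. Both KO libraries were above all controls. The log2 fold change was 0.38 (SE 0.13) and did not pass (edgeR adjusted p = 0.112). The next H1 genes were far lower: H1f4 averaged 1.09 CPM (0.841% of the family) and H1f3 0.69 CPM (0.534%). H1f4 had 1.27 and 1.03 CPM in KO and 0.98, 1.12 and 1.03 CPM in controls, with overlapping groups and a log2 fold change of 0.14 (SE 0.30). H1f5 had 17 and 6 counts in KO against 17, 41 and 17 in controls, and H1f1 was too low to test.

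H2A, which pairs with H2B in the nucleosome core, was shared among more genes. H2ac24 gave 33.1% of the family's summed CPM, H2ac23 gave 20.9% and H2ac19 gave 15.4%. H2ac24 had 12.7 and 15.8 CPM in KO against 9.02, 8.68 and 13.3 CPM in controls. Control replicate 3 was above KO replicate 1, and the difference of 0.47 on the log2 scale did not pass (SE 0.20, edgeR adjusted p = 0.202). H2ac23 had 8.81 and 10.7 CPM in KO against 5.24, 5.57 and 7.37 CPM in controls (log2 fold change 0.70, SE 0.19, edgeR adjusted p = 0.0691). H2ac19, on chromosome 3, had 7.09 and 7.61 CPM in KO against 3.95, 3.87 and 5.31 CPM in controls (log2 fold change 0.76, SE 0.19, edgeR adjusted p = 0.0584). H2ac11 had 3.11 and 3.43 CPM in KO against 1.58, 1.94 and 1.76 CPM in controls (log2 fold change 0.89, SE 0.23, edgeR adjusted p = 0.0619). For these last 3 genes both KO libraries were above all controls, yet none passed. In 4 of the 5 H2A genes above 1 CPM, control replicate 3, the shallowest library, was the highest control.

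Single H2A genes are uncertain because copies are nearly identical. Of the windows of 100 bases in its transcript, H2ac19 shared 100% with other members, H2ac23 shared 92.7% and H2ac11 shared 76.2%. The member that shared most was H2ac18 for H2ac19 and H2ac24 for H2ac23. In all, 22 of the 62 genes shared at least 50% of their windows, while H1f2 shared 5.07%, H4c9 15.1%, H2bc4 25.3% and H4c8 38.5%. The labels do not say how reads that match several copies were counted. H2ac24, H2ac23, H2ac19 and H2ac11 also overlap annotated genes on the opposite strand. Without a stated strand setting their reads cannot be told apart from these. H3c14 overlaps another gene on its own strand, and H1f4 and H2bc6 overlap each other on the same strand. There a strand setting would not separate the reads.

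H2B came mainly from H2bc4, which gave 77.2% of the family, and H2bc21, which gave 16.3%. H2bc4 (chromosome 13, 23684199 to 23692480) had 33.2 and 35.8 CPM in KO against 26.3, 28.9 and 25.7 CPM in controls. Its KO libraries were above all controls, with a log2 fold change of 0.35 (SE 0.12, edgeR adjusted p = 0.118). H2bc21, on chromosome 3, had 5.68 and 6.58 CPM in KO against 6.81, 6.36 and 6.19 CPM in controls. Its groups overlapped and its log2 fold change was -0.08 (SE 0.17, edgeR adjusted p = 0.832). H2bc6, the next in rank, had 27 and 30 counts in KO and 46, 27 and 9 in controls.

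H3, the partner of H4, had the lowest summed CPM of the families. H3c14 gave 45.3% of it and had 1.92 and 1.80 CPM in KO against 2.79, 3.16 and 1.73 CPM in controls. Control replicate 3 was the lowest of all 5 libraries, so the groups overlapped (log2 fold change -0.48, SE 0.29, edgeR adjusted p = 0.369). H3c15 gave 21.8% and had 1.70 and 1.07 CPM in KO against 0.90, 0.72 and 1.09 CPM in controls. Those groups overlapped too (log2 fold change 0.64, SE 0.34, edgeR adjusted p = 0.304). H3c3 was below 1 CPM with 20 and 18 counts in KO and 19, 32 and 24 in controls.

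H4, a core histone that many genes encode, came from H4c9 (42.3%) and H4c8 (37.8%). H4c8 (chromosome 13, 23531044 to 23531478, Entrez 69386) was the only member to pass the test. Its raw counts were 377 and 310 in KO against 329, 188 and 139 in controls. On the normalised scale it had 7.38 and 7.24 CPM in KO against 3.90, 2.45 and 4.22 CPM in controls, or 7.31 ± 0.10 CPM (SD, n = 2) against 3.52 ± 0.94 CPM (SD, n = 3). Both KO libraries were well above the highest control. H4c8 rose with a log2 fold change of 1.06 (SE 0.23, edgeR adjusted p = 0.0377). The call was lost without KO replicate 1 (edgeR adjusted p = 0.345), KO replicate 2 (0.182) or control replicate 1 (0.145), and with offsets for transcript length and GC content (log2 fold change 0.50, edgeR adjusted p = 0.197) or length alone (0.54, 0.397). H4c9 had 6.68 and 8.03 CPM in KO against 5.10, 4.16 and 4.28 CPM in controls, again without overlap (log2 fold change 0.70, SE 0.18, edgeR adjusted p = 0.0626). H4c4 had 22 and 53 counts in KO and 44, 58 and 29 in controls.

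**Figure D2:**
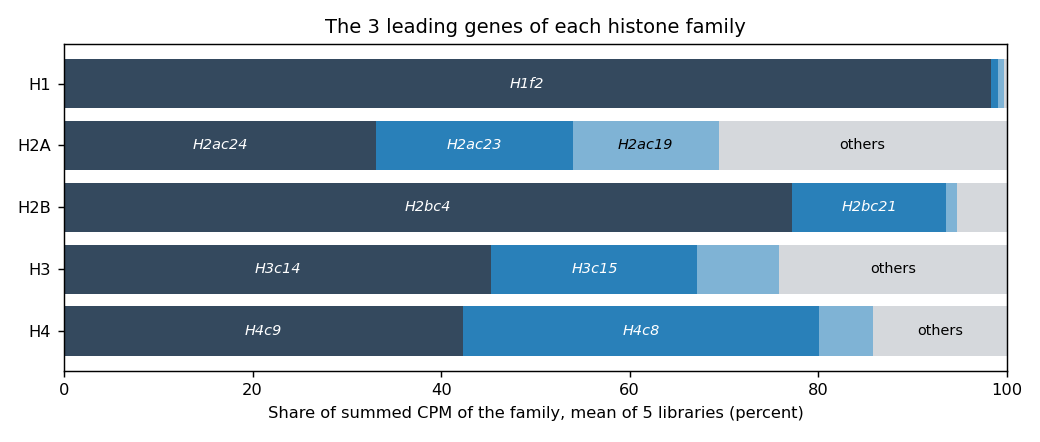
Share of each family's summed CPM held by its 3 leading genes, as the mean of the 5 libraries, in percent. H1f2 holds 98.3% of H1 and H2bc4 77.2% of H2B, while H2A, H3 and H4 are each divided among several genes.

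Levels were set side by side per kilobase of the longest annotated transcript, which may not be the message that was sequenced. A model longer than that message lowers the value. The models of H1f2, H3c14 and H4c9 ran 840, 1167 and 330 bases past the stem-loop, and that of H2ac24 only 3. The order below therefore depends on these models. On that scale H1f2 stood at 81.4 CPM per kb, followed by H2bc4 at 25.9, H2ac24 at 24.7, H2ac23 at 15.7, H4c8 at 10.7, H2ac19 at 10.5, H2ac18 (chosen after its values were seen) at 8.61 and H4c9 at 7.77. H2bc21 was at 2.41, H3c14 at 1.25 and H3c15 at 1.08 CPM per kb. Neighbours in this order such as H2bc4 and H2ac24, or H4c8 and H2ac19, lie closer together than their libraries spread.

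Many H2A and H2B genes face away from each other with starts less than 500 bases apart, an arrangement known to let a pair share promoter elements. There were 11 such pairs, which are described after their values were seen. H2bc4 and H2ac6 start 251 bases apart, yet H2bc4 was at 25.9 CPM per kb and H2ac6 at 0.225, a ratio of 116. H2ac23 and H2bc23 start 268 bases apart and were at 15.7 and 0.0926 CPM per kb, a ratio of 170. These partners were unequal in every library: H2ac6 had 24 to 35 counts and H2bc4 847 to 2219, while H2bc23 had 6 to 12 counts and H2ac23 243 to 458. H2ac11 and H2bc11 differed by a ratio of 7.03, and H2bc21 and H2ac20 by 3.65. At the other end, H2ac8 and H2bc8 (0.829 and 0.763 CPM per kb) and H2ac7 and H2bc7 were nearly level, with ratios of 1.09 and 1.13. The last pair, H2ac1 and H2bc1, had no counts. Transcript models of unequal length enter these ratios.

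Family sums do not depend on how reads were divided among near-identical copies within a family, but would still miss any reads that were dropped. H4 gave 16.2 and 18.4 CPM in KO against 11.1, 9.27 and 11.7 CPM in controls, a ratio of group means of 1.61. H2A gave 40.4 and 48.5 CPM in KO against 25.7, 26.3 and 39.2 CPM in controls, a ratio of 1.46. For both families the KO libraries were above all controls, H2A only narrowly so because of control replicate 3. H1 gave 143 and 157 CPM in KO against 111, 106 and 130 CPM in controls, a ratio of 1.30. H2B gave 41.5 and 45.4 CPM in KO against 35.3, 37.3 and 34.6 CPM in controls, a ratio of 1.22. H3 gave 5.34 and 4.81 CPM in KO against 4.83, 5.16 and 4.98 CPM in controls, a ratio of 1.02. H3 was thus the family whose groups overlapped on this scale, with 1 KO library above all controls and the other below them. As a percent of all library counts, without TMM factors, the H2A and H2B groups overlapped too. H2A stood at 0.00378 in KO replicate 1 against 0.00399 in control replicate 3. H2B stood at 0.003883 in KO replicate 1 against 0.003884 in control replicate 2.

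**Figure D3:**
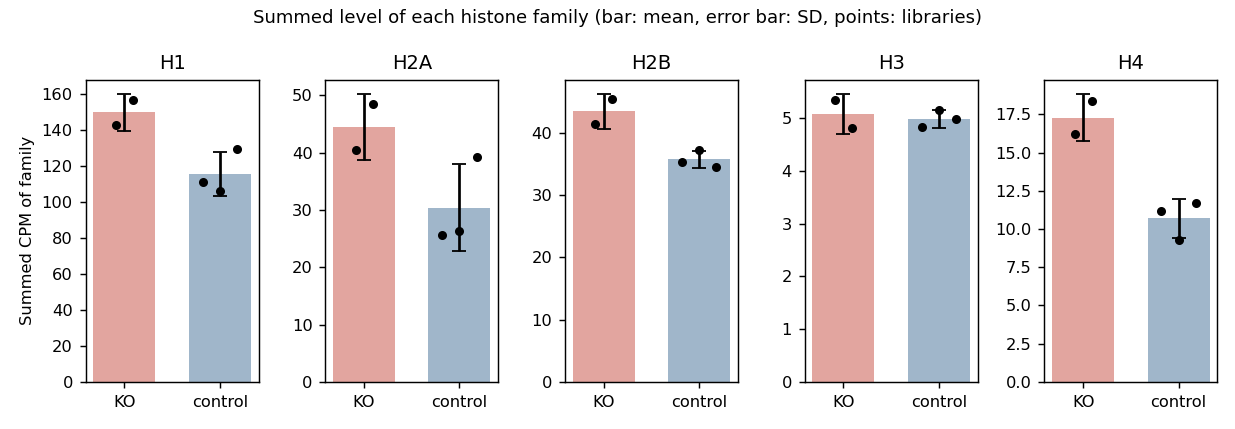
Summed TMM-normalised CPM of each histone family, with a bar at the group mean, an error bar of 1 SD and a point per library, KO left of control, each panel with its own axis from 0. KO libraries lie above all controls for H1, H2A, H2B and H4, while for H3 one KO point lies above all controls and the other below them.

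Over all 62 members the mean sum was 260 ± 19.9 CPM in KO (SD, n = 2) against 197 ± 19.7 CPM in controls (SD, n = 3), a ratio of 1.32. Without H1f2 it was 106 and 119 CPM in KO against 78.8, 80.2 and 93.3 CPM in controls, also without overlap. Members on chromosome 13 summed to 222 and 249 CPM in KO against 169, 165 and 199 CPM in controls (ratio 1.33). Those on chromosome 3, the chromosome of Cd1d1, summed to 23.7 and 25.2 CPM in KO against 19.2, 19.1 and 20.9 CPM in controls (ratio 1.24). Both clusters were higher in each KO library than in each control. Sums over members were not tested.

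Gene by gene, few differences passed the test across all genes. Of 43 members with enough counts, 1 was higher in KO (2.33%) and 0 were lower, while 2.71% of all 17472 tested genes were higher and 1.05% were lower. The member share called higher was therefore near the background. At an unadjusted p under 0.05, 11 members differed and 10 of them were higher in KO (23.3%), while 21.9% of all tested genes differed and 11.6% were higher at that level. DESeq2 called 5 members higher (H4c8, H2ac19, H4c9, H2ac23 and H2ac11) where 7.64% of all genes it gave an adjusted p were called higher, and limma voom called H4c8 and H2ac19 where 2.72% of all genes were. Both KO libraries were above all controls for 12 tested members (27.9%), against 19.9% of all genes, and below all controls for 1 member (2.33%), against 20.0%. Of the 12, 4 averaged under 1 CPM and met the count filter only with their KO libraries. The 1 member below met it only with its controls.

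Fold changes of the tested members ran from -4.00 to 1.75 on the log2 scale, with 30 positive and 13 negative. Their median was 0.30, against -0.02 over all tested genes. By family the median was 0.46 for H2A, 0.36 for H3, 0.23 for H1 and H2B, and 0.22 for H4. The 13 members above 1 CPM were picked on the mean of all 5 libraries. H3c15 reached that limit through KO (1.39 CPM, against 0.90 CPM in controls). The median of the 13 was 0.64, which is the value of H3c15 itself. Of the 13, 9 (69.2%) were higher in KO at an unadjusted edgeR p under 0.05, against 11.6% of all tested genes. The share was 50.3% among all tested genes with transcripts under 1000 bases. The median transcript of the 13 was 727 bases. Of the 13, 8 (61.5%) had KO libraries above all controls (19.9% of all genes), 0 had them below (20.0% of all genes), and the other 5 overlapped. Among all tested genes under 1000 bases these shares were 59.0% above and 2.90% below, so the 8 of 13 were near the share of short genes. Scaling by library size alone moved the median of all genes to -0.16 and that of members to 0.15, and gave 268 higher and 974 lower calls over all genes, where TMM gave 474 higher and 183 lower.

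**Figure D4:**
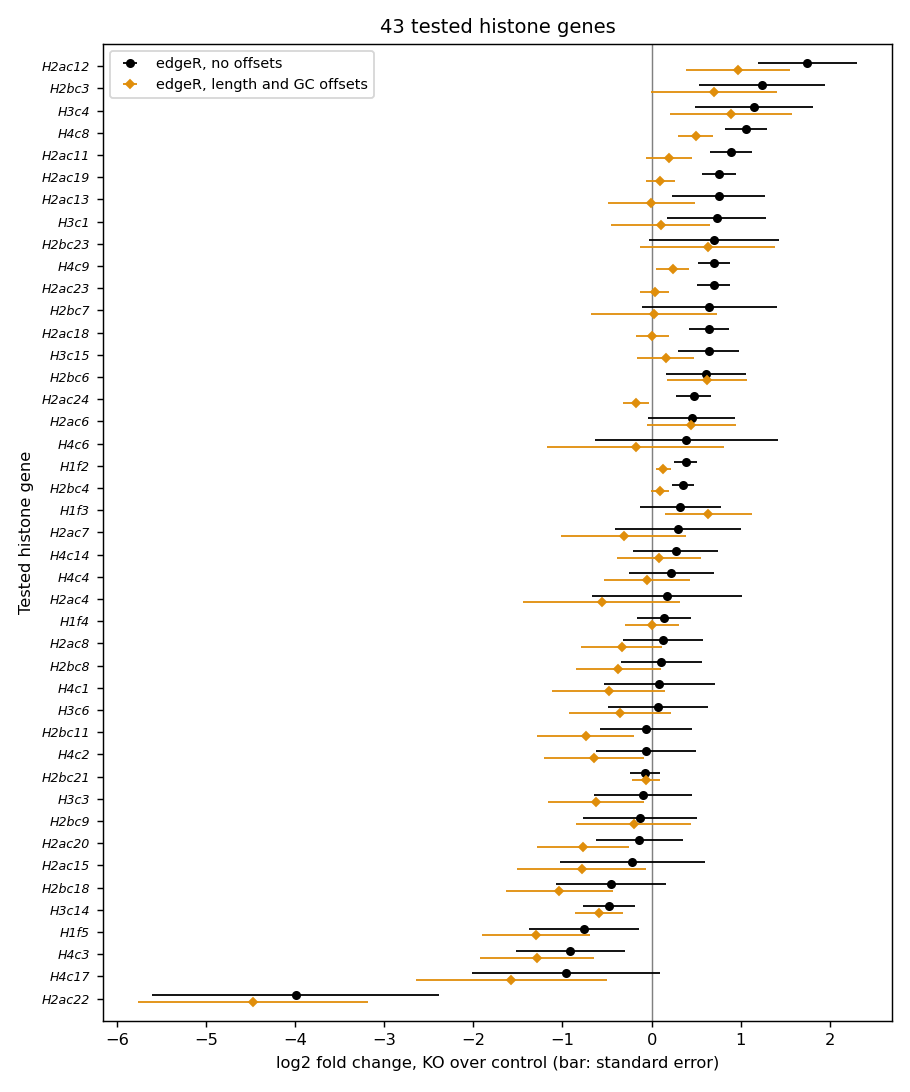
Log2 fold change, KO over control, of each of the 43 tested histone genes with its standard error, from edgeR without offsets (black) and with offsets for transcript length and GC content (orange). Abundant genes such as H1f2 and H2bc4 have short bars, rare ones such as H2ac22 long bars, and most points lie further left with the offsets.

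The extremes of the ranking were rare genes with few reads. H2ac22 had 4 and 1 counts in KO against 38, 7 and 75 in controls, with no overlap but counts that differed widely among controls. Its log2 fold change of -4.00 (SE 1.62) did not pass (edgeR adjusted p = 0.218), but did without control replicate 2 (-4.57, edgeR adjusted p = 0.0216, in a fit where 2.99% of all genes were lower). H2ac12 had 19 and 19 counts in KO against 7, 12 and 4 in controls (log2 fold change 1.75, SE 0.55, edgeR adjusted p = 0.101). H2bc3 (1.24), with 11 and 14 counts in KO against 12, 3 and 6 in controls, and H3c4 (1.15), with 10 and 10 against 5, 9 and 4, were next among the high values. At the low end H4c17 (-0.96) had 0 and 8 counts in KO and 6, 21 and 6 in controls, H4c3 (-0.91) had 7 and 14 against 21, 33 and 22, and H1f5 stood at -0.76. None of these passed. The count filter asks for enough counts in at least 2 libraries. H2ac12, H2bc3 and H3c4 met it only with their KO libraries, and H2ac22, H4c17, H4c3 and H1f5 only with their controls. The filter left out 19 members. Near it H2ac4 was tested with 3 and 9 counts in KO and 6, 15 and 2 in controls. H3c11 was not, with 4 and 6 counts in KO and 9, 8 and 15 in controls.

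Transcript length moved with the fold change in these libraries. The median longest transcript of the tested members was 586 bases, against 3271 bases over all tested genes. Among the 862 tested genes under 1000 bases, 22.9% were higher in KO, 0.116% were lower, 59.0% had both KO libraries above all controls, and the median log2 fold change was 0.46. The 29 tested members of that length held 1 higher and 0 lower, with a median of 0.18. Among the longer transcripts, the median was 0.34 for the 14 members of at least 1000 bases and -0.03 for all genes of that length. Several of these 14 models run far past the stem-loop, by 4884 bases in H1f3, 2010 in H2ac6 and 1861 in H2bc6. For most of the 14, H1f2 and H3c14 among them, the RefSeq gene spans under 1000 bases. The 14 therefore cannot be read as a group of long messages. The model lengths may not be those of the sequenced messages, and the same lengths enter the offsets. With offsets for length and GC content, 0 of 43 members passed (2.66% of all genes were higher and 0.681% lower), and the median of members was -0.048 over all 43 and 0.10 over the 13 above 1 CPM. With the offsets H1f2 had a log2 fold change of 0.13, H2bc4 of 0.10, H2ac23 of 0.04 and H4c9 of 0.24. Beyond these offsets, the part of the length trend in the member differences was not tested.

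**Figure D5:**
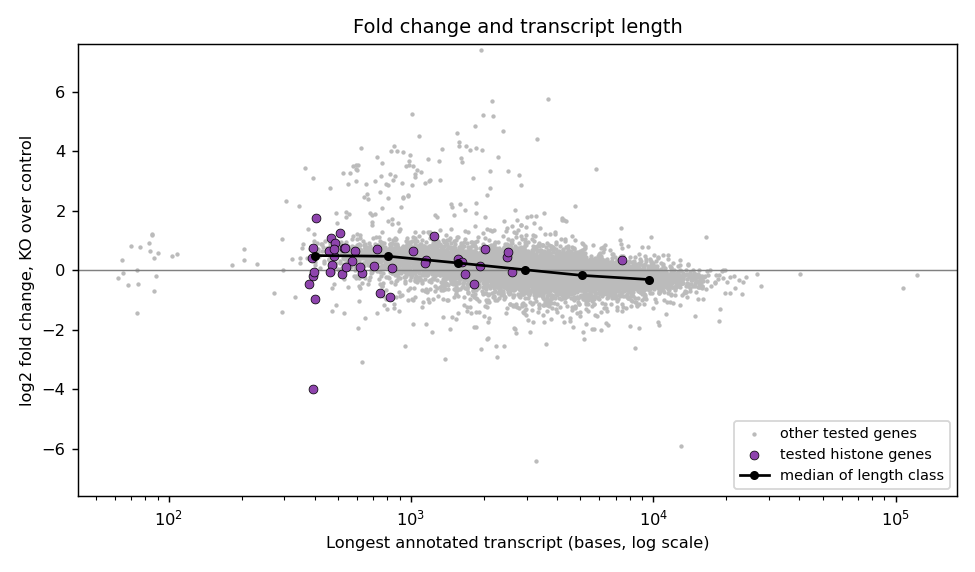
Log2 fold change, KO over control, against the length of the longest annotated transcript (log axis) for all tested genes (grey), tested histone genes (purple) and the median of each length class (black line). The class medians fall with length, at 0.49 for genes under 500 bases and -0.32 for those of at least 8000, and most histone genes sit at the short end.

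Histones that are made outside S phase, which replace the replication-dependent ones in resting cells, held many more reads. Their 11 genes summed to 2164 and 2273 CPM in KO against 1622, 1437 and 1715 CPM in controls, and KO libraries were above all controls. Of the 11, 2 rose (18.2%, against 2.71% of all tested genes) and 0 fell (against 1.05%). The median log2 fold change was 0.37. H2aj, an H2A variant, had 816 and 800 CPM in KO against 494, 366 and 526 CPM in controls and rose by 0.81 on the log2 scale (SE 0.15, edgeR adjusted p = 0.0258). H2az2, one of the genes for the variant H2A.Z, had 165 and 162 CPM in KO against 113, 118 and 117 CPM in controls and rose by 0.49 on the log2 scale (SE 0.11, edgeR adjusted p = 0.0367). Neither passed without KO replicate 1, KO replicate 2 or control replicate 1, or with offsets for length alone (0 of 11 in each). With offsets for length and GC content, H2aj and H2az2 still passed (2 of 11, where 2.66% of all genes were higher). Offsets for length alone left 0.0859% of all genes higher. Per kilobase H2aj stood at 328 CPM and H2az2 at 82.7 CPM, close to the 81.4 of H1f2. The linker histone H1f0, chosen after its values were seen, stood at 245 CPM per kb and did not pass (log2 fold change 0.25). H2aw, an H2A gene on chromosome 11 that the naming rule leaves out, had 1686 and 1334 counts in KO and 2126, 1939 and 812 in controls (log2 fold change 0.36, SE 0.11, edgeR adjusted p = 0.105).

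Genes that make, process and use histone messages did not pass in either direction. For comparison, 21.9% of all tested genes had an unadjusted p under 0.05. DESeq2 called 7.64% of all genes higher and 5.08% lower. For transcription and 3′ end processing, 0 of 30 tested genes passed (median 0.03, 6 with an unadjusted p under 0.05, 3 called by DESeq2 and 0 by limma voom). Its smallest p-values belonged to Tut7, a uridylyltransferase that acts in the decay of histone messages, at -0.53 (SE 0.14, edgeR adjusted p = 0.0683), and Cstf2, a subunit of the cleavage machinery, at -0.46 (SE 0.14, edgeR adjusted p = 0.0883). Slbp itself, chosen after its values were seen, had 36.7 and 33.1 CPM in KO and 29.5, 39.0 and 30.3 CPM in controls. Among 22 histone chaperones 0 passed (median -0.05, 3 with an unadjusted p under 0.05, 1 called by DESeq2 and 0 by limma voom). Atrx, which helps deposit H3.3, was at -0.54 (SE 0.17, edgeR adjusted p = 0.0953) and Supt16, a subunit of FACT, at -0.35.

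Proliferation genes gave the same count, and the same shares of all genes (21.9% at an unadjusted p under 0.05, 7.64% higher and 5.08% lower with DESeq2) stand beside them. Of 43 S phase and replication genes 0 passed (median 0.11, 7 with an unadjusted p under 0.05, 3 called by DESeq2 and 0 by limma voom). They summed to 1307 and 1181 CPM in KO and 1131, 1226 and 1129 CPM in controls, with overlapping groups. Tk1, thymidine kinase, had 53.4 and 48.7 CPM in KO against 35.2, 34.7 and 39.2 CPM in controls, above all controls and just short of the threshold (log2 fold change 0.49, SE 0.12, edgeR adjusted p = 0.0501). E2f1, a transcription factor of S phase entry, had 38.7 and 32.9 CPM in KO against 25.0, 23.2 and 27.2 CPM in controls (log2 fold change 0.51, SE 0.13, edgeR adjusted p = 0.057). Of 20 mitotic genes 0 passed (median -0.08, 1 with an unadjusted p under 0.05, 1 called by DESeq2 and 0 by limma voom). Birc5, survivin, was at 0.41 (SE 0.12, edgeR adjusted p = 0.0784) and Cenpe, a kinetochore motor, at -0.40 (SE 0.18, edgeR adjusted p = 0.231).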

How the data were processed

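RNA from ear skin was sequenced as 2 KO and 3 control libraries, grouped by their titles. The table deposited by the authors holds whole-number counts of reads per gene, not normalized. Per the submitters' processing notes, the tools included FastQC, HISAT2 2.0.4 and DESeq2 1.16.1 with GRCm38 (mm10). The counting program, strand setting, treatment of shared reads, and poly(A) or ribosomal RNA selection are absent from the labels, and a poly(A) selection would lower messages that lack a tail. No column was left unused (0).

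Symbols and positions came from RefSeq (GRCm38.p6; 25275 of 27179 identifiers) and longest transcripts from GENCODE vM21 (21573). The stem-loops were read from those GENCODE transcripts, and the promoters from RefSeq. After filterByExpr, 17472 genes were fitted with TMM factors of 0.936 to 1.07 and the robust quasi-likelihood test of edgeR 4.0.16 in R 4.3.3. P-values were adjusted over all of these genes by the Benjamini-Hochberg method, at a threshold of 0.05 (biological coefficient of variation 0.154). Standard errors are the log2 fold change over the root of F. Offsets were smooth trends per library (mgcv 1.9.3). DESeq2 1.42.0 and limma voom 3.58.1 were alternatives, with 17 alternatives in all: other scalings, filters, tests, offsets, a replicate block and each library left out. The fit was tested on simulated data.

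The members, lists and tests were chosen with earlier results of these data known. Named genes were Cd1d1, members past the threshold, the 3 most abundant tested members of each family, the 5 highest and 5 lowest fold changes, the members nearest the filter and the leading genes of each list. Promoter examples and H2A and H2B pairs were chosen after values were seen. No library duplicated another of its group: chi-square per degree of freedom was at least 22.9 (at most 76.3). Of the marker lists, 1 is not reported here.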

Additional observations from a re-analysis of the deposited data

How the results depend on the processing

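Against 1 member higher in KO, 4 passed when every gene with at least 1 count was kept (3.14% of all genes were higher), 5 with DESeq2, 2 with limma voom, and 0 with length and GC offsets, length offsets, or the block with offsets. Leaving out a replicate gave 0 to 8 higher members and 0 to 1 lower: 8 without control replicate 3 (10.6% of all genes higher), 2 (and 1 lower, H2ac22) without control replicate 2 (4.81% of all genes higher and 2.99% lower), and 0 without control replicate 1 (0% higher), KO replicate 1 (0.00554%) or KO replicate 2 (0.667%). Over all genes 657 passed, against 1242 with library size alone, 1036 with every gene of at least 1 count, 20 with length offsets, 1834 with DESeq2 and 0 to 3277 with a replicate left out.

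The member median of 0.30 was 0.15 with library size alone, 0.56 with at least 50 counts in 2 libraries, -0.048 with length and GC offsets, -0.029 with length offsets and 0.27 to 0.45 with a replicate left out. The log2 ratios of summed CPM under library size alone were 0.25 for all members, 0.23 for H1, 0.14 for H2B, -0.12 for H3, 0.26 for chromosome 13 and 0.16 for chromosome 3, against 0.40, 0.37, 0.28, 0.03, 0.41 and 0.31 under TMM. With a replicate left out the H3 ratio was -0.053 to 0.10.

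Replication-independent histones passing numbered 2, against 1 with library size alone, 4 with every gene of at least 1 count, 0 with length offsets, 5 with DESeq2 and 0 to 6 with a replicate left out. The 3′ processing list had 0 passing, against 2 with library size alone, 1 with every gene of at least 1 count, 3 with DESeq2 and 0 to 7 with a replicate left out. Chaperones had 0, against 1 each with library size alone, length and GC offsets and DESeq2, and 0 to 3 with a replicate left out. S phase genes had 0, against 1 each with DESeq2 size factors, upper quartile scaling and at least 50 counts in 2 libraries, 2 with every gene of at least 1 count, 4 with length and GC offsets, 3 with DESeq2 and 0 to 4 with a replicate left out. Mitotic genes had 0, against 1 each with length and GC offsets and DESeq2, and 0 to 2 with a replicate left out.

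Replicate numbers only name the samples: same-numbered libraries had deviations correlated at 0.016 and 0.064 over 2 pairs. With the replicate block 6 members (7.07% of all genes were higher), 2037 genes, 6 replication-independent histones, 4 processing genes, 1 chaperone and 2 S phase genes passed, and the member median was 0.46. With the block and offsets together 274 genes passed and the member median was 0.00023. The cause of each of these shifts was not tested. Of 562 values of 35 named genes under alternatives, 490 stayed on their side of the threshold, 18 no longer passed, 54 newly passed and 0 changed sign with a call. Depth limits the 46 detected genes below 1 CPM, where a few reads decide the fold change.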
